A study of Ovis aries with 20 samples.

Results

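The set described here holds 10 genes of epithelial cell contacts, EPCAM, CDH1, CLDN1, CLDN3, CLDN4, CLDN7, CLDN8, CLDN10, OCLN and TJP1, taken by symbol from the 24478 genes of the count tables. All 10 had a row and all 10 passed the filter on low counts that left 20097 genes for testing. RNA was sequenced from frozen sheep trachea in 20 samples that form 10 groups of 2, CF and WT at day 65, day 80, day 100, day 120 and day 147, the last of which the labels call birth. CF is cystic fibrosis, the disease caused by loss of the chloride channel CFTR, and the labels give the WT animals as healthy donors. The sources used here do not give the allele behind the CF label, the strain or the sex of the animals, and the text uses "genotype" for the CF and WT labels.

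Tight junctions seal the space between neighbouring epithelial cells. Claudins are the membrane proteins that form their strands and set which ions pass between cells, some tightening the seal and others forming ion pores. Occludin (OCLN) lies in the same strands, ZO-1 (TJP1) is the scaffold that ties them to actin, E-cadherin (CDH1) holds cells together in the adherens junction below, and EPCAM is an adhesion molecule of epithelial cells that binds CLDN7. In airway epithelium these proteins separate the mucus side from the tissue side.

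The tissue was labelled epithelial, yet transcripts of other cells were abundant. The summed level of 10 fibroblast genes ran from 11069 to 40876 CPM (counts scaled to library size after adjustment by the trimmed mean of M values) in CF libraries and from 4566 to 51834 CPM in WT libraries. A change in the share of epithelial cells and a change in RNA per epithelial cell cannot be told apart in such bulk samples. Library totals ran from 42372433 to 87651829 counts, and CFTR itself had 4.30 to 37.1 CPM in CF and 10.2 to 37.8 CPM in WT, so its transcript level does not separate the labels. In 4 libraries RNA of another organ stood out most. CF day 80 replicate 1 had 5766 CPM of the muscle actin ACTA1, CF day 65 replicate 2 had 4683 CPM of albumin (ALB), WT day 80 replicate 2 had 106018 CPM of thyroglobulin (TG), and WT day 65 replicate 2 had 89.6 CPM of ACTA1. WT day 65 replicate 2 also had the highest sum of 10 thymus genes, 299 CPM against a WT median of 42.2 CPM. Its sum of 9 lymphocyte and myeloid genes, 264 CPM against a WT median of 77.5 CPM, was the highest as well. Albumin was also at 36.6 CPM in WT day 147 replicate 1 and at 18.7 CPM in CF day 120 replicate 2. These libraries are not among the 4, and the remaining libraries had at most 1.97 CPM of albumin. The labels carry the same identifier for both WT day 100 samples, for both CF day 147 samples, and for WT day 65 replicate 2 with CF day 100 replicate 2. The last pair differs in genotype label and age, so whether a shared identifier means a shared animal or a label error is not known. In CF day 65, CF day 80, WT day 80 and WT day 120 the identifiers of the replicates differ only in a last number. Nothing states that the other replicates came from separate animals, so a p-value below reflects how far these samples scatter, and that scatter could be technical.

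One property of the libraries moved with several of the 10 genes. The deviation of each library from the mean of all 20 was regressed on gene length, both on the log2 scale, and 5 libraries had a slope under -0.12, which means that longer genes were counted less in them. These were CF day 120 replicate 1 and, in WT, day 80 replicate 1, day 100 replicate 1, day 120 replicate 2 and day 147 replicate 2. Their slopes lay between -0.243 and -0.145, and those of the other 15 libraries between -0.0993 and 0.245. Of these 5, 4 are WT, so values with this slope as a covariate are given for the comparisons of single pairs of groups in which they change a call of the 10 genes.

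EPCAM and CDH1, the adhesion genes of the set, also served as the scale for epithelial RNA. EPCAM had 203 and 138 CPM in CF against 204 and 140 CPM in WT at day 65, and 58.3 and 136 CPM in CF against 149 and 304 CPM in WT at day 80. At day 100 it had 174 and 173 CPM in CF against 285 and 305 CPM in WT. The later EPCAM values were 170 and 185 CPM in CF against 179 and 228 CPM in WT (day 120), then 211 and 190 CPM in CF against 157 and 197 CPM in WT (day 147). Both CF values were below both WT values at days 80 and 100, and the groups overlapped at days 65, 120 and 147. With 2 libraries in each group such a separation arises easily, here and for the genes below, and its share over all genes is not given here. CDH1 had 421 and 315 CPM in CF against 452 and 282 CPM in WT at day 65, and 76.1 and 209 CPM in CF against 216 and 252 CPM in WT at day 80. Its later values lay between 234 and 403 CPM in CF and between 251 and 413 CPM in WT. The lowest EPCAM and CDH1 levels of the series were both in CF day 80 replicate 1, the library with muscle transcripts. The 2 genes did not keep a fixed ratio. EPCAM over CDH1 had a median of 0.511 in CF (0.439 to 0.766) and 0.737 in WT (0.433 to 1.21), highest in the library with thyroglobulin. In the 5 libraries of low length slope CDH1 had a median of 251 CPM against 349 CPM in the other 15, and EPCAM 197 against 179 CPM. An RNA of the opposite strand, LOC105606374, overlaps exons of CDH1, and it held 16 to 177 counts per library where CDH1 held 3291 to 35647.

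**Figure D1:**
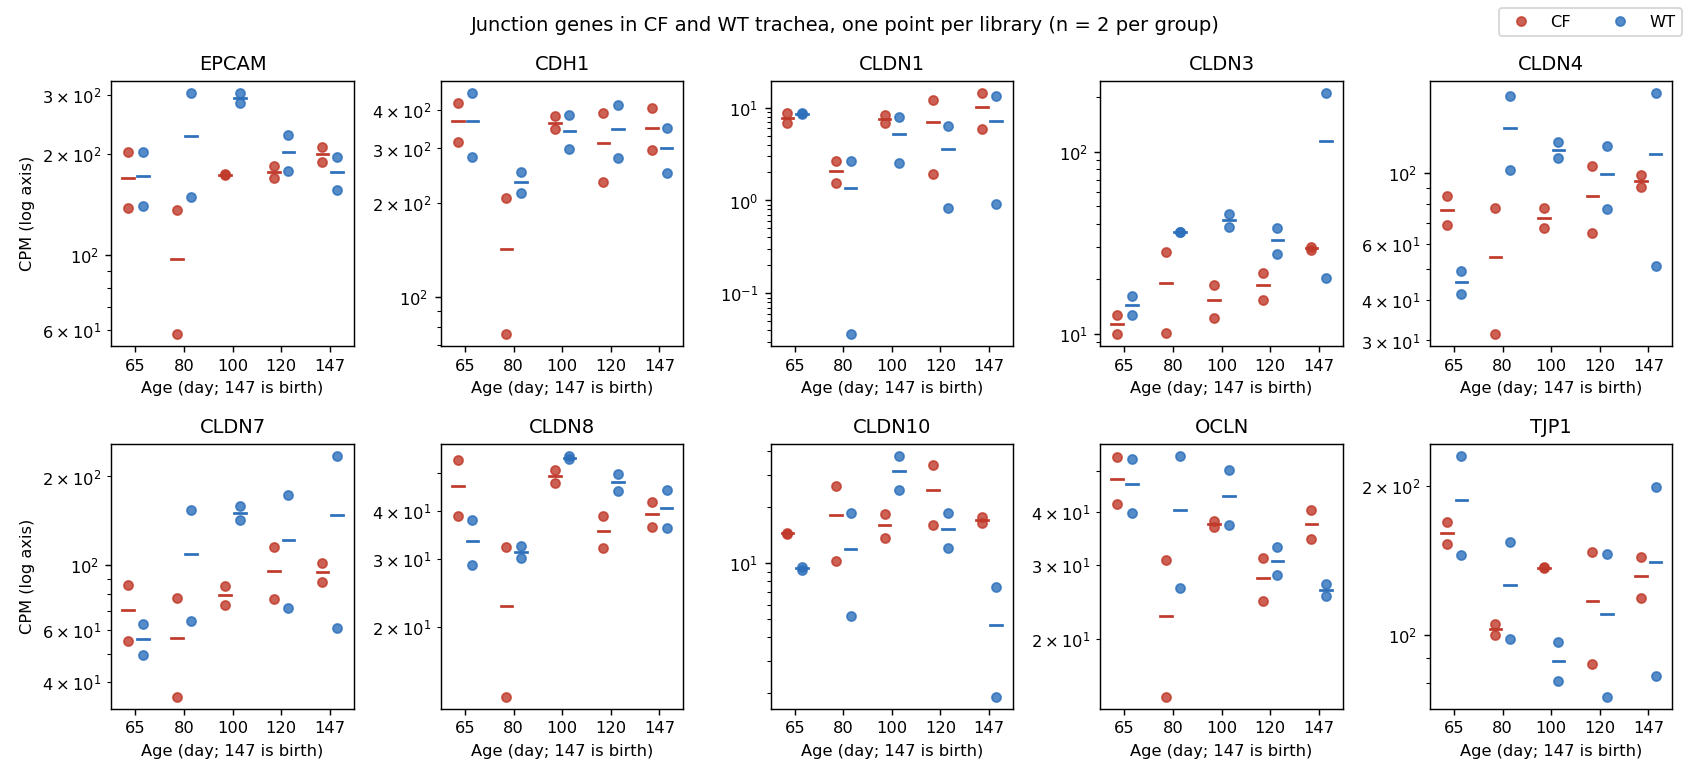
Levels of the 10 genes in CPM (log axes that differ between panels) against age in days, with CF libraries in red left of WT libraries in blue and a bar at each mean of 2. EPCAM in CF lay below WT at days 80 and 100, CLDN1 spread widely between replicates, and CLDN3 reached 210 CPM in WT day 147 replicate 2 alone.

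Among the claudins, CLDN3, a claudin that tightens the seal, showed the largest estimated genotype difference of the 10 genes with all 20 libraries and the ages averaged. It had 12.6 and 9.95 CPM in CF against 16.1 and 12.6 CPM in WT at day 65, and 10.1 and 28.0 CPM in CF against 36.0 and 36.4 CPM in WT at day 80. At day 100 it had 18.4 and 12.2 CPM in CF against 45.3 and 38.7 CPM in WT, and at day 120 21.4 and 15.3 CPM in CF against 27.3 and 37.9 CPM in WT. At day 147 it had 30.0 and 29.0 CPM in CF against 20.1 and 210 CPM in WT. Both CF values were below both WT values at days 80, 100 and 120, and the WT pair at day 147 stood on both sides of the CF pair, 10.4-fold apart.

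CLDN4, another sealing claudin, lies next to CLDN3, with 29346 bases between them on chromosome 24 in the files' coordinates (33380542 to 33381871 for CLDN4, minus strand, and 33411217 to 33412145 for CLDN3, plus strand). CLDN4 had 84.5 and 68.8 CPM in CF against 49.5 and 41.8 CPM in WT at day 65, and 77.5 and 67.1 CPM in CF against 125 and 111 CPM in WT at day 100. The order of the genotypes was opposite at those ages, with no overlap at either. At day 80 CLDN4 had 31.4 and 77.7 CPM in CF against 102 and 173 CPM in WT, also with no overlap. At day 147 CLDN4 had 90.4 and 98.8 CPM in CF against 51.2 and 177 CPM in WT. The ratio of CLDN3 to CLDN4 counts had a median of 0.237 in CF (0.145 to 0.360) and of 0.350 in WT (0.210 to 1.18, n = 10 libraries each). In WT all libraries but the 1 with thyroid transcripts and the day 147 replicate 2 lay between 0.302 and 0.393. CLDN4 had a median of 121 CPM in the 5 libraries of low length slope and of 77.4 CPM in the other 15.

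CLDN7, which partners EPCAM at the lateral membrane, had 85.6 and 55.2 CPM in CF against 63.1 and 49.4 CPM in WT at day 65, and 85.2 and 73.3 CPM in CF against 159 and 142 CPM in WT at day 100. At day 147 it had 87.3 and 102 CPM in CF against 61.2 and 235 CPM in WT. Both CF values were under both WT values at day 100, and at day 147 the WT pair again stood on both sides of the CF pair. CLDN8, a claudin that limits sodium passage in tight epithelia, ran from 13.2 to 54.0 CPM in CF and from 29.0 to 55.5 CPM in WT, and its lowest value was in the library with muscle transcripts. Both CF values of CLDN8 were above both WT values at day 65 and below them at days 100 and 120.

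CLDN10, whose isoforms form ion pores, was the 1 of the 6 claudins in the set with both CF values above both WT values at day 147. It had 17.7 and 16.5 CPM in CF against 1.92 and 7.43 CPM in WT at day 147, with no overlap. At day 65 it had 14.4 and 14.6 CPM in CF against 9.22 and 9.62 CPM in WT. At day 100 the order was the opposite, with 13.7 and 18.5 CPM in CF against 37.9 and 24.9 CPM in WT.

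CLDN1, a sealing claudin of the basolateral membrane, was the least repeatable of the 10. Its replicates differed by a median of 2.75-fold, and WT day 80 replicate 1 held 2 counts of it, or 0.0364 CPM, against 2.66 CPM in the other WT library of that age. At day 147 CLDN1 had 14.3 and 5.95 CPM in CF against 13.3 and 0.906 CPM in WT. The groups overlapped at day 147, and no direction between the genotypes can be read from such pairs. In the 5 libraries of low length slope CLDN1 ran from 0.0364 to 2.53 CPM, and in the other 15 from 1.53 to 14.3 CPM.

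OCLN and TJP1, the strand partner and the scaffold, had estimates near 0 between the genotypes over all ages. OCLN had 54.2 and 41.8 CPM in CF against 53.4 and 39.8 CPM in WT at day 65, and 40.5 and 34.6 CPM in CF against 25.4 and 27.0 CPM in WT at day 147. TJP1 ran from 87.5 to 169 CPM in CF and from 75.0 to 231 CPM in WT, and at day 100 both its CF values were above both WT values. Its 14166 counted bases make it the longest of the set, and it had 75.0 to 98.3 CPM in the 5 libraries of low length slope against 96.8 to 231 CPM in the other 15. CLDN7, with 636 counted bases, went the other way, with 115 to 235 CPM in those 5 and 35.7 to 142 CPM in the others. Levels of TJP1 and CLDN7 thus followed the length slope of the library in opposite directions. CLDN1, also with 636 counted bases, did not go with CLDN7. It was low in those 5 libraries, at 0.0364 to 2.53 CPM against 1.53 to 14.3 CPM in the others.

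**Figure D2:**
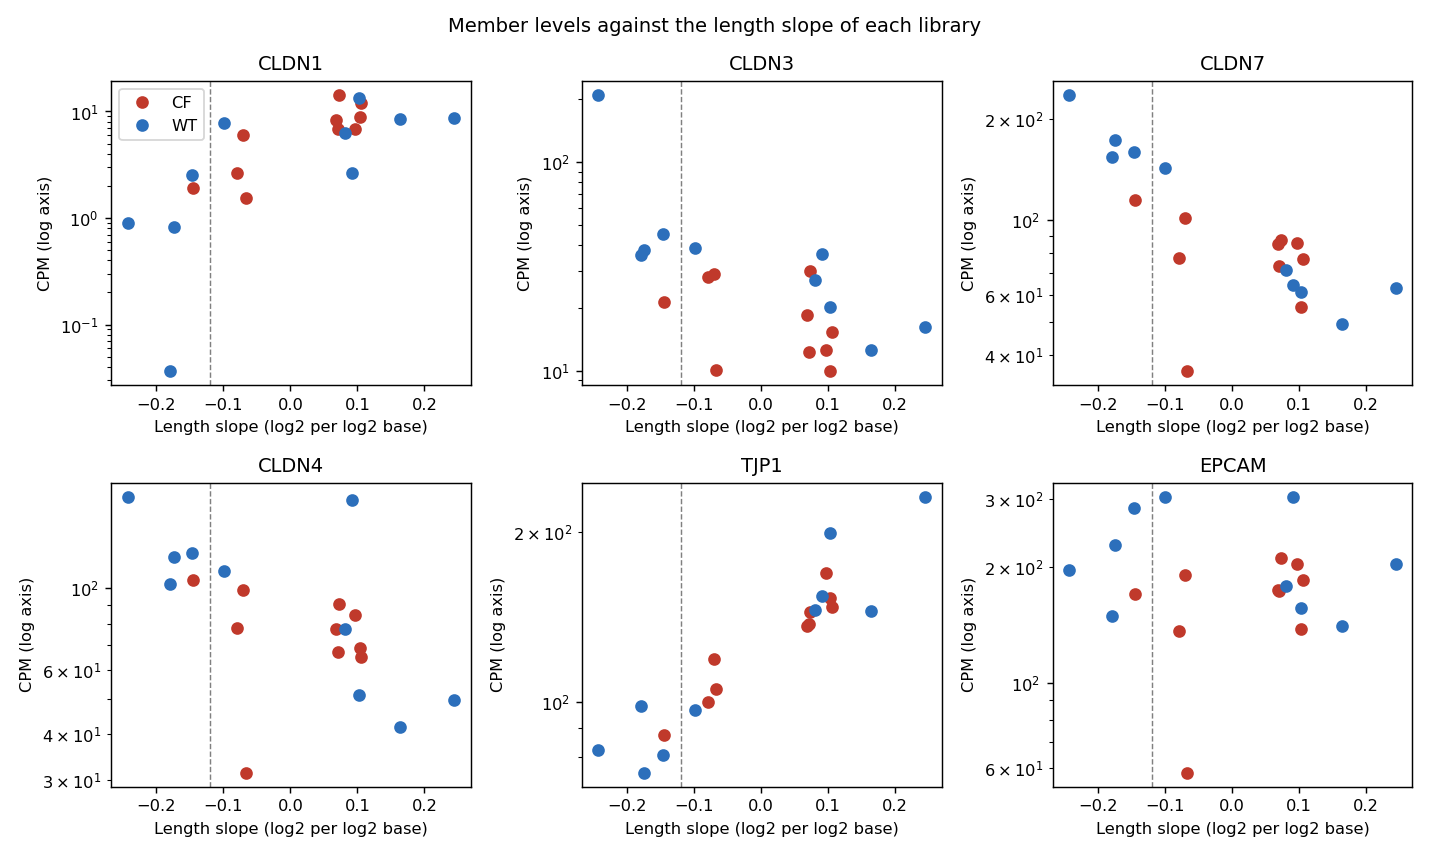
CPM (log axes) of 6 of the genes against the length slope of each library, CF in red and WT in blue, with a dashed line at -0.12. CLDN1 and TJP1 were low, and CLDN7 was high, in the 5 libraries left of the line.

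Per kilobase of counted exon, EPCAM had the highest level of the set, with a median of 175 CPM per kilobase over the 20 libraries. CLDN7 followed at 128, CDH1 at 68.3, CLDN4 at 61.1, CLDN3 at 26.2, CLDN8 at 18.2, CLDN1 at 10.3, OCLN at 9.80, TJP1 at 9.67 and CLDN10 at 7.19 CPM per kilobase. Some neighbours in that order were well apart, as CLDN7 was above CDH1 in 19 of 20 libraries and CLDN4 above CLDN3 in 19 of 20. Others were not, since CDH1 was above CLDN4 in 11 of 20 libraries, CLDN3 above CLDN8 in 13 and CLDN1 above OCLN in 8. The counted length of CLDN1 and CLDN7 is 636 bases each, a multiple of 3, so it may hold coding exons alone, and their levels per kilobase rest on that annotation.

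CLDN7 and CLDN4 made up most of the RNA of the 6 claudins in the set, in both genotypes. Claudins outside the set are not in these shares, and CLDN22 among them ran from 5.46 to 102 CPM over the 20 libraries. Of the summed CPM per kilobase of the 6 claudins, CLDN7 took 51.8% ± 3.12 in CF and 52.2% ± 8.29 in WT, and CLDN4 took 24.0% ± 1.76 in CF and 23.0% ± 7.79 in WT (mean ± SD, n = 10 libraries each, ages pooled). CLDN3 took 8.38% ± 2.55 in CF and 12.6% ± 6.25 in WT. CLDN10 took 3.62% ± 1.00 in CF and 2.06% ± 1.16 in WT. The genotypes overlapped in both, with CLDN3 at 5.34% to 12.5% in CF and 8.80% to 29.9% in WT, and CLDN10 at 2.52% to 5.04% in CF and 0.460% to 4.02% in WT. The library with thyroid transcripts had the highest CLDN4 share, 44.6%, and the lowest CLDN7 share, 34.6%. WT day 147 replicate 2 had the highest CLDN3 share, 29.9%.

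**Figure D3:**
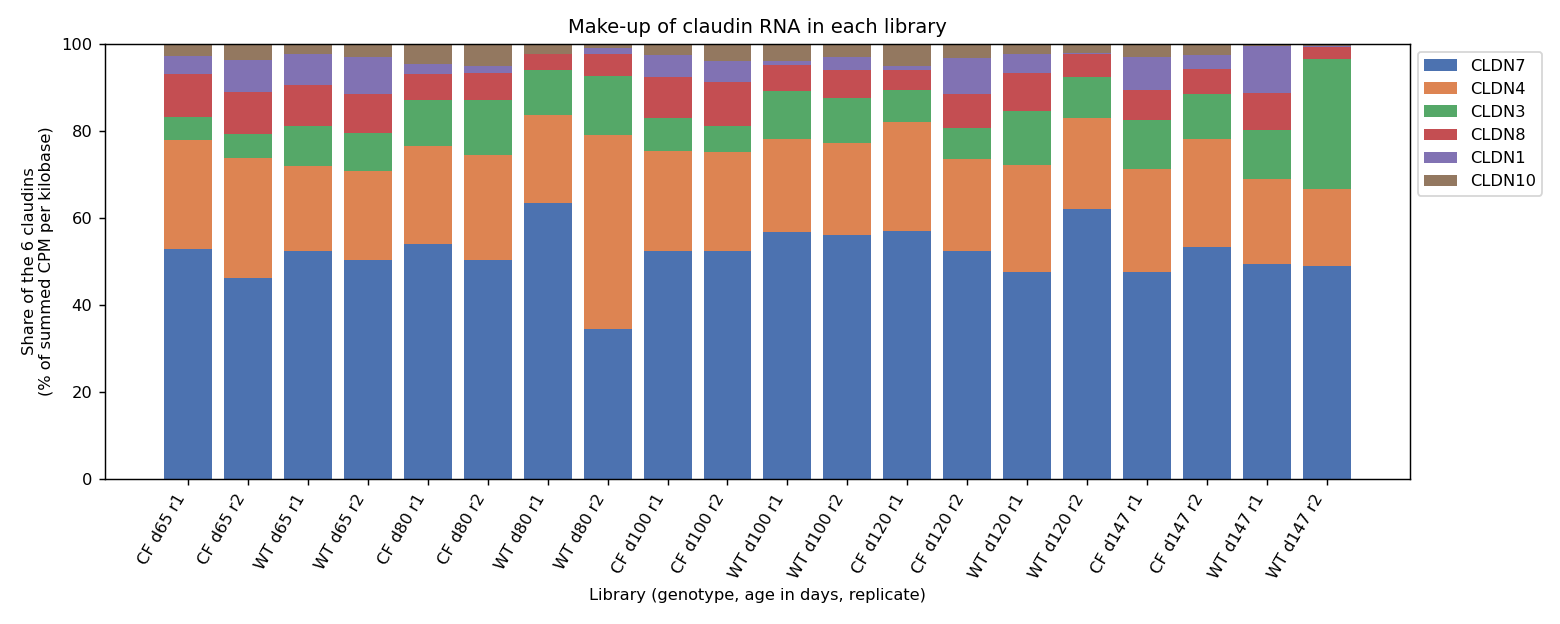
Share of each of the 6 claudins in their summed CPM per kilobase (percent), 1 bar per library, CF left of WT at each age. CLDN7 and CLDN4 fill most of every bar, and WT day 80 replicate 2 (44.6% CLDN4) and WT day 147 replicate 2 (29.9% CLDN3) stand apart.

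Dividing by the geometric mean of EPCAM and CDH1 removed most of the difference between the CF day 80 replicates. CLDN4 stood at 47.2% and 46.1% of that mean there, CLDN8 at 19.9% and 19.1%, and CLDN10 at 15.6% and 15.4%, although their CPM were more than 2-fold apart. Over the 8 genes the median fold between those replicates was 1.13 by this ratio and 2.30 in CPM. TJP1 was the exception, at 158% and 59.3%. The median fold was also lower by ratio in both groups of day 65, in WT day 80 and in CF day 100. It was higher by ratio in WT day 100 (1.31 against 1.18 in CPM), CF day 120 (1.95 against 1.56) and WT day 120 (1.67 against 1.55). In CF day 147 it was 1.16 on both scales. The ratio did not bring the WT day 147 replicates together, which were a median of 3.84-fold apart by ratio and 3.65-fold in CPM. CLDN3 there stood at 8.61% and 94.3% of the EPCAM and CDH1 mean.

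Averaged over the ages, none of the 10 genes passed the threshold between CF and WT, an adjusted p under 0.05 in edgeR's quasi-likelihood test with Benjamini-Hochberg adjustment over all genes. At that threshold 154 genes, 0.766% of those tested, differed. Of the 10, 2 had an unadjusted p under 0.05 in edgeR, as did 2254 of the 20097 genes tested. DESeq2, which passed more genes than edgeR in this comparison, called 1 of the 10, CLDN3. The log2 fold change of CLDN3 was -1.10 ± 0.33 (SE), with an adjusted p of 0.181 in edgeR's quasi-likelihood test, and DESeq2 gave -1.12 with an adjusted p of 0.0206. Without WT day 147 replicate 2, the library with 210 CPM, the CLDN3 estimate was -0.61, and without WT day 147 replicate 1 it passed, at -1.28 with an adjusted p of 0.00968 in edgeR. EPCAM came next in its unadjusted p, with -0.40 ± 0.18 and an adjusted p of 0.415 in edgeR. CLDN10 had the largest positive estimate, 0.57 ± 0.30, with an adjusted p of 0.517 in edgeR. With the length slope as a covariate CLDN10 passed, at 0.82 with an adjusted p of 0.0332 in edgeR.

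For the other genes the intervals bound the difference more or less tightly. The 95% interval of the CF over WT log2 fold change was -0.48 to 0.23 for OCLN, -0.39 to 0.43 for TJP1 and -0.44 to 0.19 for CLDN8. It was -0.88 to 1.88 for CLDN1, wide enough to hold large differences in either direction. The median log2 fold change was -0.13 over the 10 genes, with 3 positive and 7 negative, and 0.01 over all genes tested.

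A further fit, relative to EPCAM and CDH1, had their geometric mean in place of the library size. None of the 8 other genes passed in it by edgeR's quasi-likelihood test, and DESeq2 called none. Of the 8, 2 had an unadjusted p under 0.05 in edgeR, as did 3439 of the 20095 genes tested. On this scale 0.627% of all genes passed, and the median of all genes was 0.31 higher in CF. CLDN3 was at -0.87 ± 0.31 (adjusted p 0.205, edgeR) and CLDN10 at 0.78 ± 0.33 (adjusted p 0.258, edgeR). Both estimates have the sign they had in CPM, and without WT day 147 replicate 1 CLDN3 passed, at -1.05 with an adjusted p of 0.0243 in edgeR. Without WT day 147 replicate 2 the CLDN3 estimate was -0.36. With the length slope as a covariate CLDN10 passed, at 1.09 with an adjusted p of 0.00682 in edgeR. Without the 5 libraries of low length slope it passed as well, at 1.38 with an adjusted p of 0.0212.

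**Figure D4:**
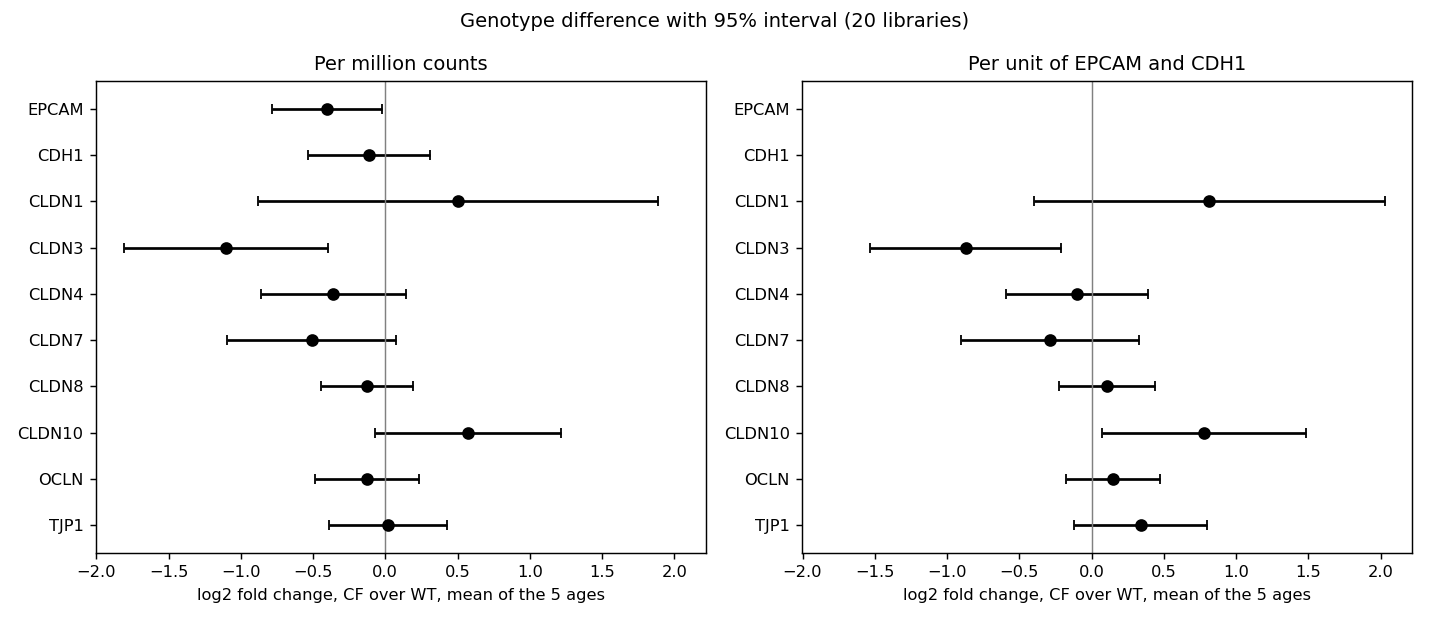
Log2 fold change of CF over WT, mean of the 5 ages, with its 95% interval, from CPM (left) and relative to the geometric mean of EPCAM and CDH1 (right). CLDN3 lies furthest below 0 on both scales, CLDN10 lies above it, and CLDN1 has the widest interval.

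At single ages none of the 10 genes passed between CF and WT by edgeR's quasi-likelihood test, nor by DESeq2. Of all genes, 0.00995% passed at day 65, 1.46% at day 100 and 0.0945% at day 147, and 0% passed at day 80 and 0% at day 120. At an unadjusted p under 0.05, none of the 10 passed at days 65, 100 and 120, where 682, 2479 and 279 of the 20097 genes did. At day 80 1924 of the 20097 genes did, and of the 10 there were 3. These were EPCAM at -1.22 ± 0.40, CLDN4 at -1.34 ± 0.53 and OCLN at -0.84 ± 0.37. CF day 80 replicate 1, with its muscle RNA, enters each of these, and their adjusted p were 0.312, 0.429 and 0.504 in edgeR. Without it EPCAM was at -0.71, CLDN4 at -0.80 and OCLN at -0.37. Without WT day 80 replicate 2 EPCAM was at -0.62, CLDN4 at -0.91 and OCLN at -0.22. Without the 4 libraries holding other tissue the OCLN estimate turned, to 0.22, with EPCAM at -0.13 and CLDN4 at -0.40. With CF day 80 replicate 1 and not its partner, EPCAM passed, at -1.97 with an adjusted p of 0.0455. At day 147 1592 of the 20097 genes had an unadjusted p under 0.05, and of the 10 there were 2. These were CLDN3 at -1.96 ± 0.75 (adjusted p 0.498, edgeR) and CLDN10 at 1.88 ± 0.69 (adjusted p 0.470, edgeR). Without WT day 147 replicate 2 the direction of CLDN3 turned, to 0.57. CLDN10 passed at day 147 with the length slope as a covariate, at 2.55 with an adjusted p of 0.0186 in edgeR. The genotype difference did not differ among ages for any of the 10 by the F test of the interaction in edgeR, which 0.0697% of all genes passed. None of the 10 had an unadjusted p under 0.05 in it, and DESeq2 called none.

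CLDN3 was the 1 gene of the set that passed between birth and day 65 when both genotypes were averaged. It rose by 2.19 ± 0.53 on the log2 scale at birth (adjusted p 0.0131, edgeR's quasi-likelihood test), in a comparison that 18.6% of all genes passed, and its CPM at birth were above all 4 day 65 values in each of the 4 libraries. Without WT day 147 replicate 2 the estimate was 0.96 (adjusted p 0.069, edgeR), and with the length slope as a covariate it was 1.25 (adjusted p 0.115, edgeR). The call was also lost without CF day 65 replicate 2 (adjusted p 0.064) and without WT day 65 replicate 2 (adjusted p 0.0581), with estimates of 2.11 in edgeR for both, and without the 4 libraries holding other tissue (2.03, adjusted p 0.127). In WT alone, where 8.23% of all genes passed, CLDN3 was at 2.999 ± 0.78 (adjusted p 0.0328, edgeR), and at 0.51 without WT day 147 replicate 2. With the length slope as a covariate it was at 1.46 (adjusted p 0.269, edgeR), and CLDN10 passed in WT, at -2.59 (adjusted p 0.00687, edgeR). Without the covariate CLDN10 in WT was at -1.01 ± 0.67 (adjusted p 0.342, edgeR). Without the 5 libraries of low slope CLDN10 in WT was at -2.27 (adjusted p 0.0473, edgeR). Without the 4 libraries holding other tissue CLDN3 in WT was at 2.83 (adjusted p 0.192, edgeR). With samples of a shared identifier summed it was at 3.06 (adjusted p 0.0711, edgeR). Without either WT day 65 library the adjusted p in WT was 0.181 or 0.188. In CF alone, where 5.49% passed, it was at 1.39 ± 0.73 (adjusted p 0.367, edgeR), none of the 10 had an unadjusted p under 0.05, and DESeq2 called none. The difference between those changes, -1.61 ± 1.03, did not pass (adjusted p 0.914, edgeR), nor did that of the other 9 genes, and 0.00498% of all genes did. No unadjusted p of the 10 was under 0.05 there, and DESeq2 called none.

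Of the other genes, CLDN4 was at 0.81 ± 0.37 and CLDN7 at 0.91 ± 0.43 at birth over day 65, with adjusted p of 0.144 and 0.161 in edgeR. Without WT day 147 replicate 1 both passed, at 1.13 (adjusted p 0.0236) and 1.24 (adjusted p 0.0364). Without WT day 147 replicate 2 CLDN4 was at 0.26 and CLDN7 at 0.30, and with the length slope as a covariate CLDN7 was at -0.05. OCLN was at -0.59 ± 0.26 (adjusted p 0.135, edgeR), and without the 4 libraries holding other tissue it passed, at -0.78 (adjusted p 0.0333). EPCAM at 0.14 ± 0.28 and CDH1 at -0.18 ± 0.31 were near 0, and CLDN8 at 0.02 ± 0.23 was nearest. Scaled by library size alone, the median of all genes was -0.30, against -0.03, and the estimates of EPCAM and CLDN8 were negative, at -0.15 and -0.27. CLDN1 was at 0.05 ± 1.01 (adjusted p 0.984, edgeR) and CLDN10 at -0.39 ± 0.47 (adjusted p 0.608, edgeR). With the length slope as a covariate both passed, at 1.73 (adjusted p 0.0219, edgeR) and -1.38 (adjusted p 0.0108, edgeR). Relative to EPCAM and CDH1, CLDN3 passed at 2.23 ± 0.51 (adjusted p 0.0122, edgeR), where 8.93% of all genes passed. That call was lost without WT day 147 replicate 2 (0.94, adjusted p 0.164), without either CF day 65 library (adjusted p 0.0565 or 0.0609) and without WT day 65 replicate 1 (adjusted p 0.0638). It was also lost with the length slope as a covariate (0.99, adjusted p 0.136), with samples of a shared identifier summed (2.22, adjusted p 0.0507) and without the 4 libraries holding other tissue (2.33, adjusted p 0.107). With the slope CLDN10 passed on that scale, at -1.62 (adjusted p 0.00901, edgeR). Without the slope it was at -0.40 ± 0.52 (adjusted p 0.706, edgeR). None of the 10 passed the F test for any difference among the 5 ages, which 17.9% of all genes passed in edgeR. There 2 had an unadjusted p under 0.05, as did 6753 of the 20097 genes tested, and DESeq2 called 2. In that test CLDN3 had an adjusted p of 0.0662 and CLDN8 of 0.0881 in edgeR.

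**Figure D5:**
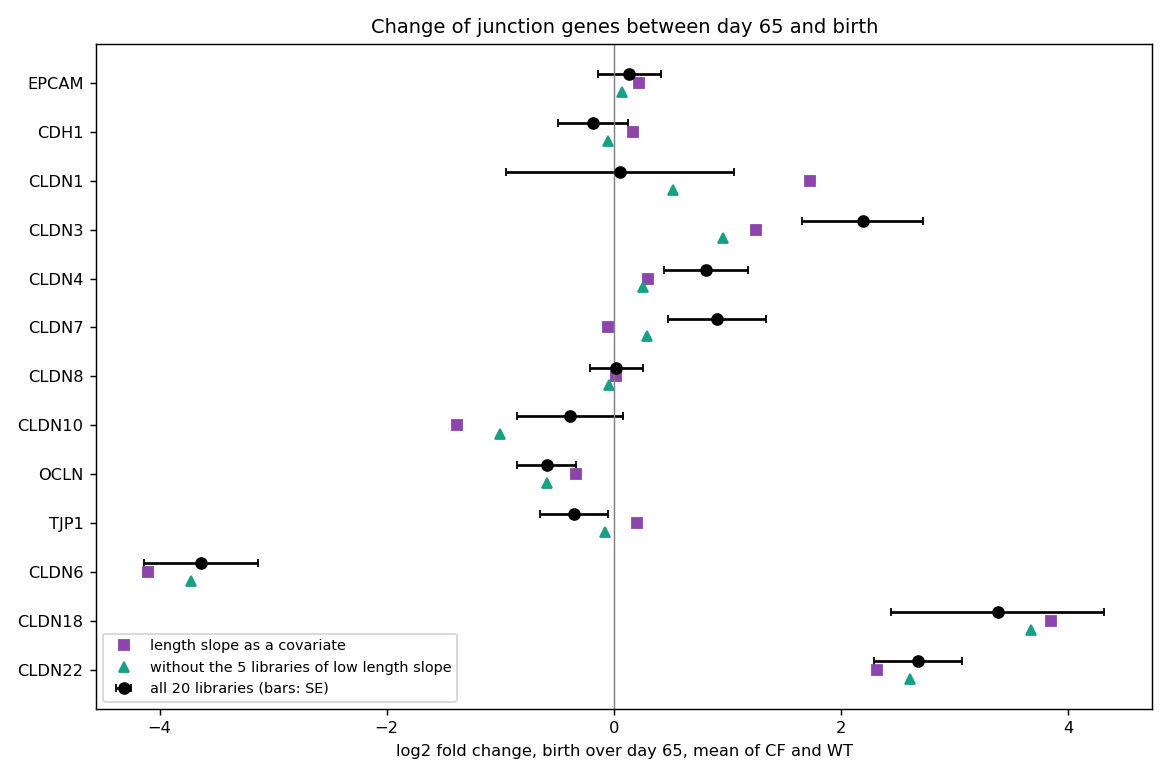
Log2 fold change of birth over day 65, mean of CF and WT, for the 10 genes and 3 further claudins, from all 20 libraries (black, bars are SE), with the length slope as a covariate (purple) and without the 5 libraries of low slope (green). CLDN3 is at 1.25 and 0.96 in the alternatives, and CLDN6, CLDN18 and CLDN22 lie further from 0 than the members in each.

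Of 17 other claudin genes in the tables, with CLDND1 counted among them, 15 were tested. Between birth and day 65 3 changed, 2 higher and 1 lower, with a median of -0.04. That share is near the 18.6% of all genes. CLDN6, known from embryonic epithelia, fell by 3.64 ± 0.50 on the log2 scale at birth (adjusted p 0.000352, edgeR). It had 1.23 and 1.46 CPM in CF and 0.298 and 0.398 CPM in WT at birth, against 15.1 and 10.7 CPM in CF and 7.16 and 4.11 CPM in WT at day 65, with no overlap. CLDN6 passed in all 30 alternatives run for that comparison. CLDN18, known from stomach and lung, was 3.38 ± 0.94 higher at birth (adjusted p 0.0253, edgeR), at 0.994 to 3.60 CPM against 0.0802 to 0.369 CPM at day 65, and it passed in 22 of 30 alternatives. CLDN22 was 2.68 ± 0.39 higher (adjusted p 0.000527, edgeR) and passed in all 30. The exons of CLDN22 overlap those of WWC2, which was 1.01 ± 0.25 higher (adjusted p 0.0154, edgeR), and with the strand setting of the counting unknown the reads of the pair cannot be told apart.

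Between CF and WT 1 of the 15 tested genes of this list changed in edgeR, where 0.766% of all genes did. It was CLDND1, which encodes a claudin-domain protein, and none of those named CLDN changed. CLDND1 fell by 0.41 ± 0.07 on the log2 scale in CF (adjusted p 0.0221, edgeR). It had 45.7 and 43.3 CPM in CF against 56.2 and 56.5 CPM in WT at day 65, and 45.6 and 51.0 CPM in CF against 101 and 91.8 CPM in WT at day 100. At day 80 the order was the opposite, with 65.2 and 60.1 CPM in CF against 57.7 and 51.0 CPM in WT. Without day 100 the estimate was -0.26, and the call was lost in 16 of 35 alternatives.

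Of 23 tight junction partners, none changed between CF and WT, where 2254 of the 20097 genes tested had an unadjusted p under 0.05 in edgeR. Of the partners 1 did. At birth 2 of them were lower than at day 65, and relative to EPCAM and CDH1 none of them changed. Of all genes 18.6% passed for birth against day 65, and a smaller share of each list in this paragraph did. JAM3, a junctional adhesion molecule, fell by 0.99 ± 0.30 (adjusted p 0.0352, edgeR). MAGI3, a scaffold protein, fell by 0.78 ± 0.22 (adjusted p 0.0290, edgeR). Of 15 adherens junction genes CDH3, which encodes P-cadherin, fell by 1.16 ± 0.23 at birth (adjusted p 0.00446, edgeR), and none changed between the genotypes or had an unadjusted p under 0.05 there. EVPL, a desmosome plaque protein, fell by 2.09 ± 0.45 (adjusted p 0.00656, edgeR) as 1 of 11 desmosome genes tested, and none changed between the genotypes, where 2 had an unadjusted p under 0.05. Of 20 other epithelial genes ELF3, an epithelial transcription factor, was 2.23 ± 0.40 higher at birth (adjusted p 0.00229, edgeR), and CDS1, a lipid enzyme, was 0.94 ± 0.26 higher (adjusted p 0.0267, edgeR). None of the 20 changed between the genotypes, where 2 had an unadjusted p under 0.05. CDH3 and ELF3 passed in all 30 alternatives run for birth against day 65, EVPL in 29, CDS1 in 22, MAGI3 in 21 and JAM3 in 16. MAGI3 was at -0.43 (adjusted p 0.0606, edgeR) with the length slope as a covariate.

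A list of 8 genes held 6 repressors of the epithelial state (ZEB1, ZEB2, SNAI1, SNAI2, TWIST1 and TWIST2) and the mesenchymal genes CDH2 and VIM. Of all genes 8.77% were higher and 9.86% lower at birth, and of the 8 ZEB1, ZEB2, SNAI1, TWIST1 and CDH2, 5 in all, were lower. Relative to EPCAM and CDH1, 831 of the 20095 genes tested were higher at birth and 964 lower. On that scale 2 of the 8 were lower, ZEB1 and CDH2. None of the 8 changed between the genotypes in edgeR, where 2 had an unadjusted p under 0.05, as did 2254 of the 20097 genes tested. SNAI1 passed there with DESeq2, at 0.61 (adjusted p 0.0248), and in edgeR with the length slope as a covariate, at 0.68 (adjusted p 0.0336). ZEB1, a repressor of CDH1 transcription, fell by 1.53 ± 0.29 at birth (adjusted p 0.00293, edgeR), and CDH2, N-cadherin of mesenchymal cells, fell by 3.47 ± 0.47 (adjusted p 0.000317, edgeR). Among markers of other cells, 7 of 10 fibroblast genes were lower at birth, 8 of 11 ciliated cell genes and 7 of 9 secretory cell genes were higher. Relative to EPCAM and CDH1, 3 of the 10 fibroblast genes were lower at birth, and 6 of the 11 ciliated and 8 of the 9 secretory cell genes were higher. Secretory transcripts summed to 86808 CPM in WT day 147 replicate 2, their highest value in WT and the library in which CLDN3 and CLDN7 were highest, and their highest CF value was 27961 CPM. The part of these cells in the junction genes' changes was not tested.

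The genes most like each member were found by the root mean square difference of centred log2 CPM over the 20 libraries, among 12500 genes. TJP1 had the nearest match, FAM208A, at 0.13 log2 units, and CDH1 the next, PTPRF, at 0.14. CLDN7 was nearest to the simple epithelial keratins KRT8 (0.17) and KRT18 (0.20), EPCAM to RAB19 (0.20), CLDN8 to WWC1 (0.20), OCLN to SHTN1 (0.22) and CLDN4 to BSPRY (0.26). CLDN10, CLDN3 and CLDN1 had no match as near, since their nearest genes, WNT10A, PRR15L and FAM91A1, lay at 0.43, 0.48 and 0.57. No member was among the 3 nearest of another. These distances share the libraries, their depth and their length slopes, and they are descriptions.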

How the data were processed

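The deposited files hold whole-number raw counts, in a table of CF and a table of WT samples. Per the submitters' processing notes, the authors aligned reads with STAR 2.6 and counted them with featureCounts 1.6.3. The gene lengths are the deposited summed exon lengths, per the file headers. The sources used here do not give the genome build, annotation release or strand setting. Among counts from 1 to 20, 70.7% to 85.3% per library were even. Genes were kept with edgeR's filterByExpr, scaled by the trimmed mean of M values and fitted with edgeR 4.0.16 (R 4.3.3, quasi-likelihood test, Benjamini-Hochberg adjustment over all genes, threshold 0.05) with 1 mean for each of the 10 groups. A second fit used the geometric mean of EPCAM and CDH1 in place of library size. Alternatives were DESeq2 1.42.0, other scalings and filters, a replicate block, the length slope as a covariate and left-out libraries. The exclusion of the 5 libraries of low slope was added after seeing the data. Fits were tested on simulated data. The named genes are the 10 members, up to 4 called genes per list with the largest change, and each member's 3 nearest genes, of which 1 or 2 are given. CFTR, WWC2, LOC105606374 and the markers of other organs were named after their values were seen. The members and lists were chosen with earlier results of these data known. No sequences were used here.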

Additional observations from a re-analysis of the deposited data

How the results depend on the processing

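No estimate of the 10 genes that passed with all 20 libraries and no covariate changed sign under any alternative run. CLDN1 and CLDN7, which passed for birth against day 65 under 1 alternative each, ranged over -1.43 to 1.73 and -0.05 to 1.24, and CLDN7 in WT over -0.11 to 2.06. With the length slope CLDN3 was lost and CLDN10 gained for birth against day 65 in WT and relative to EPCAM and CDH1, so those counts did not change. The number of the 10 that passed for CF against WT over all ages was 1 with DESeq2 and 1 with the length slope as a covariate, against 0, and 0 to 1 with a library left out. At day 80 it was 0 to 1 with a library left out, with EPCAM passing without CF day 80 replicate 2. At day 147 it was 1 with the length slope. For birth against day 65 in both genotypes it was 2 with the length slope, 0 without the 5 libraries of low slope and 0 to 3 with a library left out. In WT it was 0 with the replicate block, 0 with samples of a shared identifier summed, 0 without the 4 libraries holding other tissue and 0 to 3 with a library left out. For any difference among ages it was 2 with DESeq2, 2 with the length slope, 2 without the 5 libraries and 0 to 3 with a library left out. Relative to EPCAM and CDH1, it was 1 for CF against WT with the length slope, 1 without the 5 libraries and 0 to 1 with a library left out. For birth against day 65 on that scale it was 2 with DESeq2, 2 with the EPCAM and CDH1 level as a covariate, 0 with identifiers summed, 0 without the 4 libraries, 0 without the 5 libraries and 0 to 2 with a library left out. The cause was not tested.

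Replicate numbers did not pair the samples, since replicate differences in CF and WT correlated at -0.53 to 0.25 over the ages. With the replicate block CLDN3 was at 2.88 for birth against day 65 in WT (adjusted p 0.0553, edgeR), and 103 genes passed for CF against WT over all ages, against 154. DESeq2 passed 801 genes there and the fit with the length slope 745. Scaled by library size alone, 26.9% of the genes that passed for birth against day 65 were higher, against 47.1%. With 2 libraries a group, a replicate spread such as that of CLDN1 limits what can be detected. Where leaving out a library left 1 in its group, that sample is assumed to vary like the other groups.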
